A study of Rattus norvegicus with 11 samples.

Results

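The genes Hes1, Hes5, Hes6, Hey1, Hey2, Heyl, Nrarp and Maml3 were examined in the rat dentate gyrus at 90 days after traumatic brain injury (TBI). Most answer to Notch signaling, Maml3 takes part in its nuclear step, and Hes6 belongs to the same family as Hes1. Each gene was taken as the probe set that the array annotation assigns to its symbol and to no other, and where a gene had several, the one whose average signal was highest across all 11 arrays was used. These 8 genes were 8 of the 16572 genes, and 8 of the 17905 probe sets, that were tested. All 8 passed the filter on low signal, as did 17905 of the 18644 probe sets with 1 symbol, and none of their values lay at or below the background. By mean signal, Hes6, Hes1, Hey2 and Heyl stood at percentiles 37.3, 43.5, 44.1 and 44.8 of the probe sets tested.

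When a Notch receptor binds a ligand on a neighboring cell, proteases release its intracellular part, which enters the nucleus and joins the DNA-binding protein Rbpj and a Mastermind-like coactivator. The complex switches on several Hes and Hey genes, such as Hes1 and Hes5, whose basic helix-loop-helix (bHLH) proteins repress transcription, and Nrarp, whose small protein dampens the signal. In the dentate gyrus this pathway is known for keeping neural stem cells undifferentiated and for its activity in astrocytes.

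The TBI group held 6 male Sprague-Dawley rats with lateral fluid-percussion injury (FPI), in which a fluid pulse strikes the exposed dura over the left parietal cortex. The control group held 5 sham-operated rats of the same strain and sex, which had anesthesia and surgery but no impact and were sampled at the same time. RNA came from the left dentate gyrus with its hilus, on the injured side, and each rat gave 1 Affymetrix Rat Gene 1.1 ST array. The labels call the rats biological replicates, and the number of arrays, 11, limits the precision of every value. The tissue was a mixture of cell types, so fewer cells of a type and less RNA per cell cannot be told apart in any difference given here.

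Control rat 2 and TBI rats 1 and 3 stood apart from the rest of their groups. Once the group means were removed, 1 component held 63.9% of the remaining variance over all probe sets, and these 3 rats scored 0.45, 0.49 and 0.42 on it, against -0.34 to 0.06 in the others. The array medians ranged from 5.26 to 5.35 on the log2 scale. All 7 listed markers of dentate granule neurons passed the filter on low signal, as did 17905 of the 18644 probe sets with 1 gene symbol. All 8 listed markers of choroid plexus passed it too. The mean log2 signals of the granule neuron list lay between 7.09 and 7.40 in TBI and 7.17 and 7.32 in control rats.

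The stretch around a gene's start site is where Rbpj and the Hes proteins themselves can bind, so it was read for the genes in RefSeq (rat build GRCr8, from 250 bases before the start site to 50 after it). Promoters were matched for Hes1, Hes5, Hes6, Hey2, Heyl, Nrarp and Maml3, 7 of the 8 genes, and not for Hey1. The Rbpj core was searched as TGGGAA on both strands, which is TTCCCA on the minus strand. Those of Hes1, Hes5, Hey2 and Maml3 are shown because they hold at least 1 core, each 5′ to 3′ on the strand of its gene with the core in capitals, and they lie at chr11:84212996-84213295 (minus strand), chr5:170804327-170804626 (plus strand), chr1:28640850-28641149 (plus strand) and chr2:138288566-138288865 (minus strand).
Hes1: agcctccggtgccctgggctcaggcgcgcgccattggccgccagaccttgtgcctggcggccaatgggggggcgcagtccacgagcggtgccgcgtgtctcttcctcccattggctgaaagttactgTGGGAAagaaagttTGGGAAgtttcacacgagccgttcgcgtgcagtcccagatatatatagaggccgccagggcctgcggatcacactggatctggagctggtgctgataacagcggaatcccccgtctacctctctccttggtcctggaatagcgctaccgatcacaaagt
Hes5: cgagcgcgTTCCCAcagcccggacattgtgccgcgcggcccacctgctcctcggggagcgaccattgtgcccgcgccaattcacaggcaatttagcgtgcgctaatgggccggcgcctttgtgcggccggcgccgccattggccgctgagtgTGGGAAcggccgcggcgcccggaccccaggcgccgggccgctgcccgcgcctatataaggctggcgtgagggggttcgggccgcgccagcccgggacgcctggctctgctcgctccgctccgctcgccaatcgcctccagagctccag
Hey2: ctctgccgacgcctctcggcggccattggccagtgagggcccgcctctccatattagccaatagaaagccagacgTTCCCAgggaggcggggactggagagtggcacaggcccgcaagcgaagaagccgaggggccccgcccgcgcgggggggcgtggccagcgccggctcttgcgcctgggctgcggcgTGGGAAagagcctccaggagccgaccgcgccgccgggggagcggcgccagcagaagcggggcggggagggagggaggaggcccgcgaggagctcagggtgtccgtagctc
Maml3: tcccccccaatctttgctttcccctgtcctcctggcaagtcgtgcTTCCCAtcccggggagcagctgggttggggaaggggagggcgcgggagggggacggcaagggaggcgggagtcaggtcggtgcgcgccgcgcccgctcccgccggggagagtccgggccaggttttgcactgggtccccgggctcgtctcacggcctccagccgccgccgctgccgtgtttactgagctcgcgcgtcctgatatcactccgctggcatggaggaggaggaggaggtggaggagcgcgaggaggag

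Hes1 held 2 cores on the same strand, starting 123 and 109 bases before the start site with 8 bases between them. Hes5 also held 2, at 242 bases on the minus strand and 98 on the plus strand, and so did Hey2, at 175 bases on the minus and 60 on the plus strand. Maml3 held 1 core 205 bases before its start site on the minus strand, and no match was found in the windows of Hes6, Heyl and Nrarp. Over all 33469 promoters of the same length, 25.7% held at least 1 core and 3.85% held 2 or more. Such matches describe letters in a window and do not show binding.

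Sites that Hes and Hey proteins are known to bind were searched on both strands as well, as the E box CACGTG, the class C site CACGCG and the N box CACNAG, of which no stretch of letters can match more than 1. Hes1 held 2 class C sites and 4 N boxes. Nrarp held the 1 E box found among the 7 genes and 2 N boxes, Heyl held 1 class C site, and Hes6 held 2 N boxes. Hes5, Hey2 and Maml3 held no match to any of these 3 motifs. Of all promoters, 6.42% held an E box, 8.50% a class C site and 43.1% an N box.

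**Figure D1:**
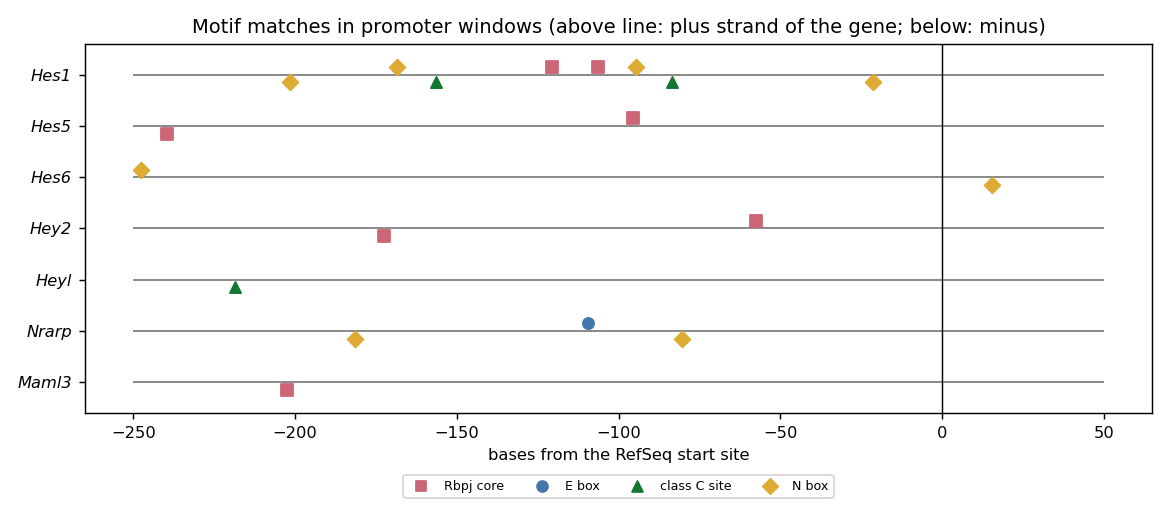
Motif matches in the promoter windows of 7 genes, by distance in bases from the RefSeq start site (vertical line). Symbols above each line are on the strand of the gene and those below on the other strand. The 2 Rbpj cores of Hes1 lie side by side, whereas those of Hes5 and Hey2 are spread over the window.

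The first question was whether the genes differed between injured and sham-operated dentate gyri. None of the 8 passed the test adjusted over all probe sets in limma, where 27 of 17905 probe sets (0.151%) did. At an unadjusted p under 0.05, 2 of the 8 passed, Nrarp lower and Maml3 higher in TBI, against 6.82% of all probe sets. Values of TBI and control rats overlapped for all 8 genes (0 of 8 without overlap), and 1.04% of all probe sets had no overlap. The difference was positive for 6 genes and negative for 2, with a median of 0.061 on the log2 scale (0.011 over all probe sets), and its absolute size had a median of 0.097 (0.046 over all). The SD within groups, with a median of 0.0996, was close to that of all probe sets (0.100).

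Hes1 encodes the repressor that keeps neural stem cells from differentiating. Its log2 signal was 5.57, 5.43, 5.58, 5.56 and 5.73 in control rats 1 to 5, and 5.47 at the lowest, 5.56 at the median and 5.73 at the highest in TBI rats. The groups covered nearly the same range, with TBI rat 2 and control rat 5 at the top and control rat 2 at the bottom. The difference, TBI minus control, was 0.015 ± 0.061 (SE; limma, adjusted p = 0.98). Its sign turned to -0.014 with median-centred arrays, -0.0092 with a second quantile normalization, -0.0076 with array weights and -0.017 without the 3 rats that stood apart.

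Hes5, a repressor of neural stem cells and radial glia that depends closely on Notch, had log2 signals of 6.92, 7.01, 6.92, 6.90 and 6.91 in control rats. In TBI rats the lowest value was 6.78, the median 6.90 and the highest 6.92. Of the rats, 4 controls and 4 with TBI lay within a narrow band, control rat 2 lay above it, and TBI rats 1 and 2 lay below. The difference was -0.061 ± 0.039 (limma, adjusted p = 0.84), and it was -0.027 without the 3 rats that stood apart and -0.028 with array weights. With median-centred arrays it was -0.089, with an unadjusted p under 0.05 (limma, adjusted p = 0.66).

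Hes6 differs in role, since in mouse its protein binds Hes1 and blocks it, which favors neuronal differentiation. Its log2 signal was 5.20, 5.17, 5.11, 5.08 and 5.08 in control rats, and 5.05, 5.19 and 5.51 at the lowest, median and highest in TBI rats. TBI rats 3 and 4 lay well above all controls, and TBI rat 1 lay below them. The TBI values spread more widely (SD 0.17, n = 6) than the control values (SD 0.055, n = 5), a contrast that was not tested. The difference was 0.12 ± 0.075 (limma, adjusted p = 0.84), and without TBI rat 3 it was 0.071. With array weights and without TBI rat 1 the unadjusted p of Hes6 was under 0.05, with differences of 0.12 and 0.16.

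The Hey proteins, known foremost from blood vessels and the heart, pair with Hes proteins on DNA. Hey1 had log2 signals of 7.11, 7.32, 7.38, 7.38 and 7.38 in control rats, and 7.34, 7.42 and 7.50 at the lowest, median and highest in TBI rats. TBI rats 1, 5 and 6 were above every control, the other 3 fell within the range of the controls, and control rat 1 was far below its group. The difference was 0.11 ± 0.056 (limma, p = 0.081, adjusted p = 0.79; exact two-sided permutation p = 0.0801), and without control rat 1 it was 0.055.

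Hey2, which in mouse acts with Hey1 in arterial vessels, had log2 signals of 5.61, 5.73, 5.61, 5.40 and 5.49 in control rats, and 5.48, 5.61 and 5.91 at the lowest, median and highest in TBI rats. The medians of the groups were the same at 5.61, and the positive difference of 0.088 ± 0.083 (limma, adjusted p = 0.90) came with TBI rats 2 and 3 above all controls. It was 0.038 without TBI rat 3, 0.057 without TBI rat 2 and 0.045 without control rat 4. Heyl, the third of the family and known from vascular smooth muscle, had log2 signals of 5.65, 5.56, 5.65, 5.65 and 5.71 in control rats. In TBI rats its lowest value was 5.54, its median 5.66 and its highest 5.85. TBI rats 4 and 6 were above the controls and TBI rat 1 below them, and the difference was 0.034 ± 0.053 (limma, adjusted p = 0.94). Single rats carried this value, which was 0.00037 without TBI rat 6, 0.021 without TBI rat 4, 0.014 without control rat 2 and 0.061 without TBI rat 1. It was 0.0054 with median-centred arrays, 0.015 with a second quantile normalization and 0.017 with array weights.

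Nrarp encodes an ankyrin-repeat protein that binds the intracellular part of Notch and promotes its loss, so that the gene is both a target and a brake. Its log2 signal was 7.42, 7.18, 7.16, 7.12 and 7.13 in control rats, and 6.86, 7.03 and 7.20 at the lowest, median and highest in TBI rats. TBI rats 1 to 4 were below every control, TBI rats 5 and 6 lay among the controls, and control rat 1 was far above its group. The difference was -0.18 ± 0.074 (0.883-fold; 95% interval -0.34 to -0.018; limma, p = 0.0321, adjusted p = 0.66), with an exact two-sided permutation p of 0.0541. The permutation test ran over the 462 splits of the rats. The difference was -0.12 (limma, adjusted p = 0.66) without control rat 1 and -0.11 (adjusted p = 0.45) without the 3 rats that stood apart, and in both cases the unadjusted p was above 0.05. This was so too without TBI rat 1, 2 or 3, with array weights, which gave the smallest difference (-0.087), and with a second quantile normalization (-0.18).

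Maml3 encodes 1 of the Mastermind-like coactivators, the partner that the Notch and Rbpj complex needs to start transcription. Its log2 signal was 6.08, 5.79, 6.01, 5.92 and 5.87 in control rats, and 6.01, 6.05 and 6.20 at the lowest, median and highest in TBI rats. TBI rats 2 and 6 were above all controls, the other 4 lay at the level of control rats 1 and 3, and control rat 2 was the lowest of all. The difference was 0.14 ± 0.057 (1.1-fold; 95% interval 0.016 to 0.26; limma, p = 0.0304, adjusted p = 0.65), with an exact two-sided permutation p of 0.0541. Leaving out control rat 2 gave 0.10 (limma, adjusted p = 0.96), and leaving out the 3 rats that stood apart gave 0.13 (adjusted p = 0.26), both with an unadjusted p above 0.05. The same held without control rat 4 or 5 or TBI rat 2 or 6, with median-centred arrays (0.11) and with a second quantile normalization (0.12).

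**Figure D2:**
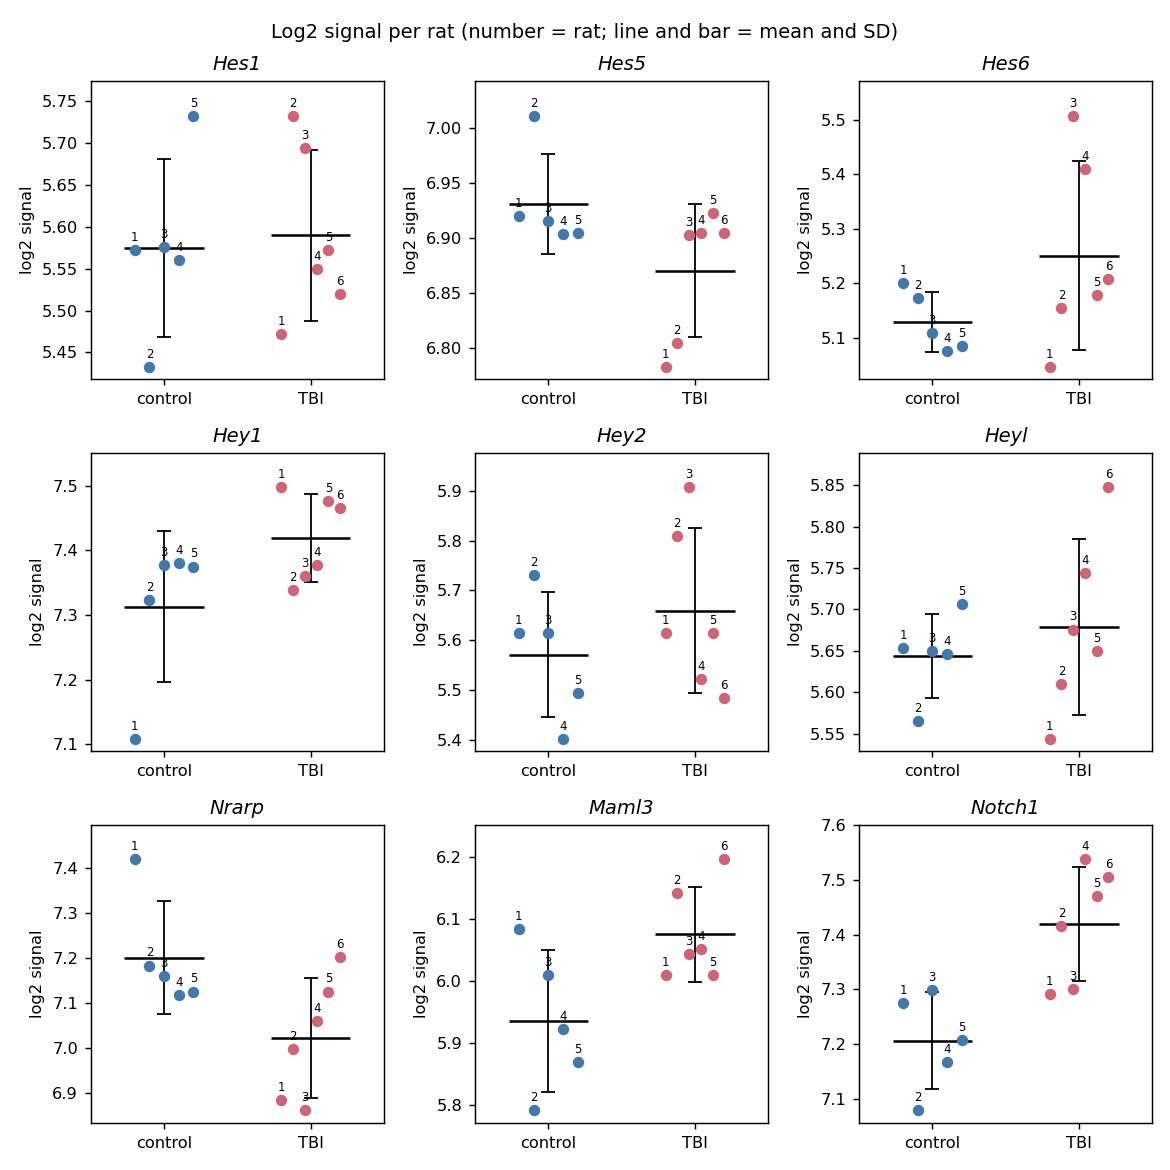
Log2 signal (vertical axis) of the 8 genes and of Notch1 in 5 control (blue) and 6 TBI (red) rats. Each point is 1 rat with its number, the line is the group mean and the bar its SD. The groups overlap in every panel. Control rat 1 is far from its group for Hey1 (7.11) and Nrarp (7.42), and control rat 2 for Hes5 (7.01).

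The 95% intervals bound the differences. Over the 8 genes the highest upper bound was 0.29 (1.22-fold), for Hes6, and the lowest lower bound was -0.34 (0.790-fold), for Nrarp. With each rat left out in turn, Nrarp stayed between -0.21 and -0.12 and Maml3 between 0.10 and 0.18, while Hes1 ran from -0.020 to 0.055. None of the 8 genes passed the adjusted threshold in any of the 23 alternative settings, over which the adjusted p ran from 0.073 to 1.00 for Nrarp and from 0.090 to 1.00 for Maml3.

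**Figure D3:**
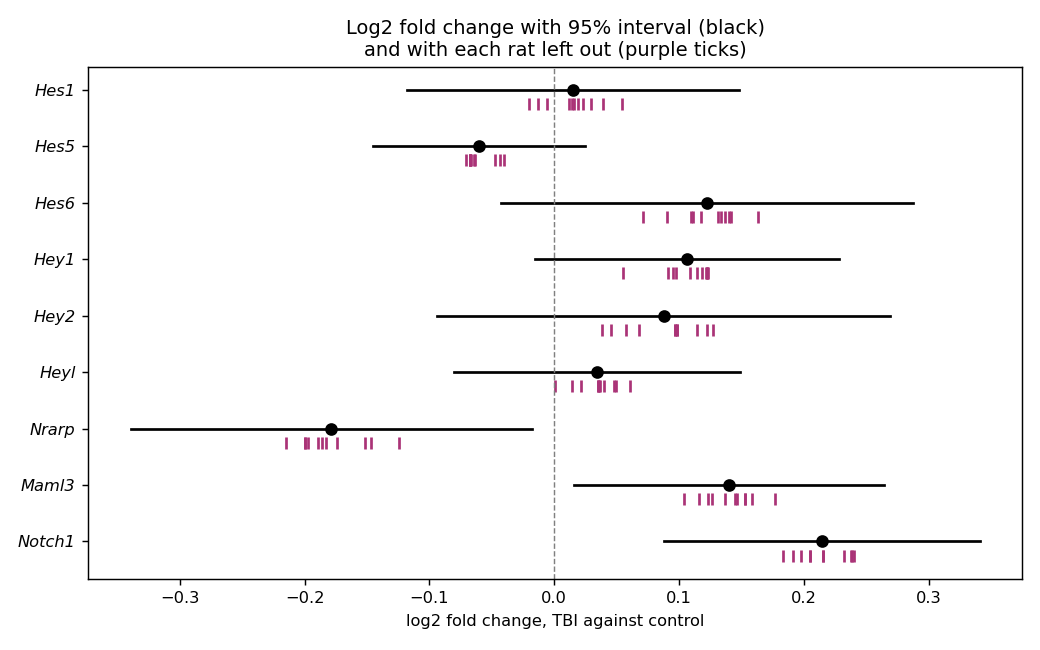
Log2 fold change, TBI against control, of the 8 genes and Notch1. Black points and lines are the limma estimate and its 95% interval, and purple ticks are the estimates with each rat left out in turn. The intervals of Nrarp (-0.34 to -0.018), Maml3 (0.016 to 0.26) and Notch1 do not include 0 before adjustment.

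The second question was how each gene followed Notch1, a receptor of this pathway, over the rats. Notch1 had log2 signals of 7.28, 7.08, 7.30, 7.17 and 7.21 in control rats, and 7.29, 7.44 and 7.54 at the lowest, median and highest in TBI rats. Of the 6 TBI rats, 5 were above all controls. The difference was 0.21 ± 0.058 (limma, p = 0.0031, adjusted p = 0.30; exact two-sided permutation p = 0.013), and since its group means lay apart, values within groups are given beside the pooled ones.

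Maml3 followed Notch1 over the 11 rats, with a Pearson's r of 0.79 (two-sided permutation p = 0.0037) and a Spearman's rho of 0.73 (p = 0.0125). It was the one gene of the 8 with a permutation p under the threshold. TBI rat 4 and control rat 2 had the Notch1 values most distant from its median, and without them r was 0.77 (exact permutation p = 0.0163). After the group means were taken out r was 0.62 (exact permutation p = 0.0485), within the 6 TBI rats 0.41 (exact permutation p = 0.422), and without the 3 rats that stood apart 0.69 (exact permutation p = 0.0610). In limma with group and Notch1 as terms its slope was 0.61 ± 0.27 (log2 per log2 of Notch1; adjusted p = 0.10), which did not pass. With Notch1 as the only term, an alternative chosen after seeing the data, Maml3 passed in limma with an adjusted p of 0.027 and was 1 of the 8 genes to do so, against 16.4% of all other probe sets. As strong a correlation with Notch1 as that of Maml3 was found for 7.50% of all probe sets.

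Nrarp had a pooled correlation with Notch1 near 0 (r = -0.12, permutation p = 0.738; rho = -0.20, p = 0.555), but its values within groups rose with those of Notch1. After subtraction of the group means r was 0.69 (exact permutation p = 0.0356), and within the TBI rats it was 0.89 (exact permutation p = 0.0306; rho 0.77, p = 0.103). TBI rats 1 and 3, which stood apart, had the lowest Nrarp and the lowest Notch1 of their group. In limma with group and Notch1 as terms its slope was 0.92 ± 0.32 (log2 per log2 of Notch1; adjusted p = 0.040), and it was 1 of the 8 genes to pass, against 33.6% of all probe sets. The adjusted p ran from 0.016 to 0.114 with each rat left out in turn and was above the threshold without control rat 1 or 4 or TBI rat 1, 3, 5 or 6. It was also above it with median-centred arrays (limma, adjusted p = 0.067) and with array weights (adjusted p = 0.053). Without the 3 rats that stood apart the pooled r was -0.27 (exact permutation p = 0.579).

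Heyl had an r with Notch1 of 0.66 within groups (exact permutation p = 0.0442) beside a pooled r of 0.58 (permutation p = 0.0622; rho 0.51, p = 0.110). Without TBI rat 4 and control rat 2 its r was 0.38 (exact permutation p = 0.330). The pooled r of the other genes was 0.38 for Hes6, 0.33 for Hey1, 0.13 for Hes1, -0.06 for Hey2 and -0.34 for Hes5, with permutation p-values from 0.25 to 0.86. Without the 3 rats that stood apart, Hes6 had an r of 0.76 (exact permutation p = 0.0108). These p-values are for 8 relations and are not adjusted. With group means removed, an r as strong was found for 38.3% (Heyl), 35.1% (Nrarp) and 42.9% (Maml3) of all probe sets. The median absolute r of the 8 genes was 0.33, below that of all probe sets (0.45), and with group means removed it was 0.32 against 0.55.

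**Figure D4:**
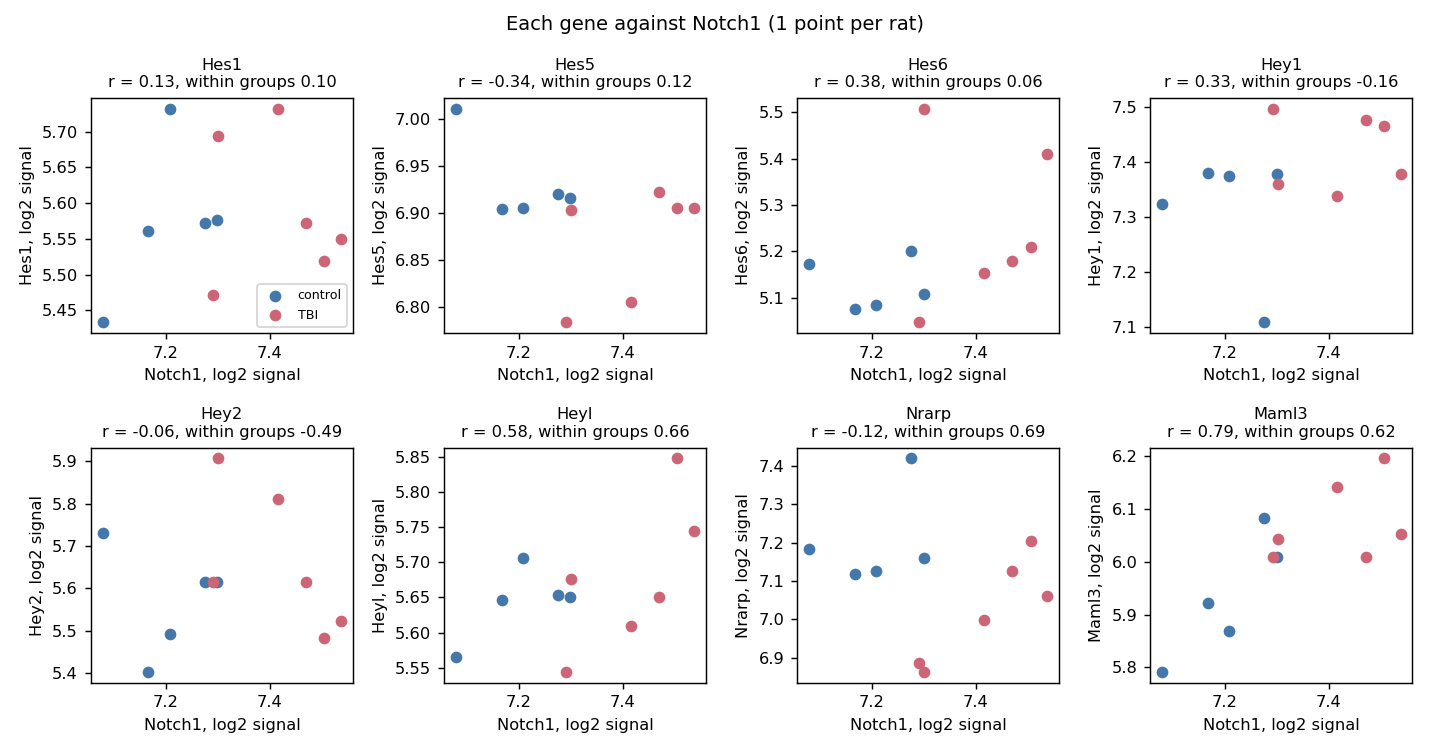
Log2 signal of each of the 8 genes (vertical axis) against that of Notch1 (horizontal axis), 1 point per rat, 5 control (blue) and 6 TBI (red). The titles give Pearson's r over all rats and with group means removed. Maml3 rises with Notch1 over both groups (r = 0.79), whereas Nrarp rises within the TBI group (r = 0.89) and has a mean of 7.02 there and 7.20 in the controls.

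The component on which 3 rats stood apart moved with these relations. With group means removed its correlation with Notch1 was -0.93, with Nrarp -0.72, with Maml3 -0.70 and with Heyl -0.68. For Hey2 it was 0.48, for Hey1 0.30 and for Hes1 -0.26, and for Hes5 and Hes6 it was close to 0 (-0.0059 and -0.013). With the component as a covariate beside group and Notch1, no probe set of 17904 had a Notch1 slope past the adjusted threshold in limma (378 at an unadjusted p under 0.05), and the slope of Nrarp was 0.19 ± 0.86 (adjusted p = 1.00). In the comparison of TBI with control the same covariate left the differences of Nrarp and Maml3 as they were, by its construction, with adjusted p-values of 0.073 and 0.090 (limma).

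The genes did not move as a block over the rats. Of their 28 pairs, 15 correlated positively over the 11 rats, and the median r was 0.062. The highest r was 0.56, between Hes5 and Nrarp, and the lowest -0.60, between Hey1 and Nrarp. Nrarp and Maml3, the pair with unadjusted p-values under the threshold, had an r of -0.02 pooled and 0.58 with group means removed, and their differences between the groups had opposite signs. All these values share the same 11 arrays and are given as a description.

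For each gene, the genes with the most similar pattern over the 11 arrays are named by Pearson's r, again as a description of the highest among 17904. Nearest to Hes1 were Aopep (0.94) and Ranbp10 (0.89), to Hes5 Cdx2 (0.90) and Aldh1a1 (0.87), and to Hes6 Or10j7 (0.95) and Ptpn18 (0.93). Nearest to Hey1 were Tspan18 (0.91) and Mtus1 (0.90), to Hey2 Vwa3b (0.92) and Il17f (0.87), and to Heyl 1700013G24Rikl (0.95) and Atg101 (0.95). Nearest to Nrarp were Tmem44 (0.90) and Sycn (0.89), and to Maml3 Or2y1h (0.95) and Cubn (0.93). None of the 8 genes was among these neighbors of another.

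Markers of astrocytes, radial glia and interneurons, cell types that the dissected tissue holds, were read beside the genes. Gfap, the intermediate filament of astrocytes, was higher in TBI by 0.83 ± 0.047 on the log2 scale (limma, adjusted p = 1.4e-05), and Fabp7, a fatty acid binding protein of radial glia and astrocytes, by 0.38 ± 0.059 (adjusted p = 0.032). Pvalb, which marks a class of interneurons, fell by 0.60 ± 0.064 (adjusted p = 0.0057). Of 10 astrocyte markers measured, 1 passed the adjusted test and 3 the unadjusted one, all higher, and the mean log2 signal of the list was 9.24 to 9.30 in TBI and 9.04 to 9.26 in control rats. Of 9 markers of neural stem cells and radial glia 4 were higher unadjusted (among them Fabp7, Hopx and Vim), and of 7 interneuron markers 3 were lower (Pvalb, Sst and Npy), where 6.82% of all probe sets passed in either direction. Without passing, the stem and radial glia markers Dcx (-0.072) and Sox11 (-0.10) were lower and the interneuron marker Vip (0.078) was higher. The astrocyte markers Gjb6 (-0.085), Aldoc (-0.093), Slc1a3 (-0.092) and Slc1a2 (-0.0048) were lower, also without passing. For the stem and radial glia list the mean log2 signal was 6.78 to 6.88 in TBI and 6.62 to 6.72 in control rats, and for the interneuron list 6.87 to 7.18 and 7.25 to 7.36. Of 7 endothelial markers 2, and of 8 markers of pericytes and smooth muscle 3, were higher unadjusted, with mean log2 signals of 6.17 to 6.28 in TBI and 6.05 to 6.26 in control rats for the first list and 5.90 to 6.09 and 5.79 to 5.99 for the second. In the lists for granule neurons, microglia, oligodendrocytes and their progenitors, choroid plexus and CA pyramidal cells, 1 gene passed unadjusted, Aif1 of the microglia, at -0.15. Not every listed marker was measured, and those measured had all passed the filter on low signal.

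Nrarp correlated over all rats at -0.65 with the mean of the stem and radial glia markers and at -0.58 with that of the astrocyte markers (-0.30 and -0.21 with group means removed). Maml3 correlated at 0.48 and 0.22 with the same lists, and at -0.32 and -0.62 with group means removed. Hey1 correlated at 0.52 with the astrocyte list and 0.17 with group means removed. Hes5 correlated at -0.54 with the stem and radial glia list and at -0.10 with the astrocyte list. With group means removed, Hes5 had -0.17 and 0.65. Heyl correlated at -0.13 with the stem and radial glia list and at -0.84 with group means removed. With the endothelial list and the pericyte and smooth muscle list, Hey1 had an r of 0.39 and 0.32. Hey2 had 0.52 and 0.42, and Heyl -0.33 and 0.13. After removal of the group means, Hey1 had 0.10 and -0.13, Hey2 0.45 and 0.31, and Heyl -0.58 and -0.041. With the CA pyramidal list, Nrarp had an r of 0.53, Maml3 of 0.53 and Hey1 of -0.61. With group means removed these were 0.69, 0.66 and -0.73. With the oligodendrocyte progenitor list, Nrarp had 0.54 and Heyl 0.67 (0.66 and 0.69 with group means removed). The component correlated within groups at 0.84 with the granule neuron list, -0.79 with the CA pyramidal list and -0.83 with the progenitor list. The part of cell composition in the differences of these genes and in the component was not tested.

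Other genes of the Notch pathway, with Id proteins and bHLH factors beside it, were described with 7 lists. Of these lists, 71 genes were measured. None of the 71 passed the adjusted test in the comparison of all 11 rats. Notch1 did with array weights, without the 3 rats that stood apart and with the component as a covariate (limma, adjusted p = 0.026, 0.035 and 0.0037). Calls over all probe sets rose as well in these settings, from 25 higher and 2 lower to 243 and 67, 179 and 92, and 451 and 495. The weights, the 3 rats and the component came from these same data. Notch1 correlated at -0.93 with the component within groups, so the covariate was bound to narrow its spread. These calls are therefore no separate support for a difference. At an unadjusted p under 0.05, 9 were higher in TBI and 0 were lower (4 higher with median-centred arrays), where 6.82% of all probe sets passed in either direction. Id1, Id3 and Id4, which are not parts of the Notch pathway, were among the 9. Among 12 receptors and ligands, Notch1 passed unadjusted, and Jag1, a ligand, stood at 0.12 ± 0.061. Among 19 genes of Notch processing and trafficking none passed unadjusted, with Lfng, a glycosyltransferase that modifies Notch, at 0.16 ± 0.092.

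In the nuclear complex, 1 of 11 genes passed unadjusted, Snw1, a coactivator of Notch-bound Rbpj, at 0.16 ± 0.073. Of 9 corepressors that Hes and Hey proteins recruit or work with, Tle3, a Groucho protein, at 0.23 ± 0.099, and the deacetylase Hdac1, at 0.090 ± 0.032, passed unadjusted. Of the 6 other repressors of the Hes family and its relatives, Hes3, at 0.14 ± 0.060, and Bhlhe41, at 0.18 ± 0.079, passed unadjusted. The medians of these lists lay between 0.0051 and 0.052, near that of all probe sets (0.011).

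Id proteins, which lack the DNA-binding part of bHLH factors and capture their partners, had the highest median of the lists, at 0.24. Id3 was at 0.51 ± 0.12 (limma, adjusted p = 0.22), Id4 at 0.33 ± 0.079 (adjusted p = 0.23), Id1 at 0.15 ± 0.048 (adjusted p = 0.44) and Id2 at 0.0037 ± 0.096 (adjusted p = 1.00). The mean log2 signal of the 4 genes was 6.99 to 7.17 in TBI and 6.77 to 6.93 in control rats, without overlap. The means of the stem and radial glia list and of the interneuron list did not overlap between the groups either. Of single probe sets, 1.04% had no overlap. Of 10 proneural and neuronal activators, which Hes proteins oppose, none passed unadjusted, with Neurog2 at 0.099 ± 0.054 and Neurod1 at -0.21 ± 0.15.

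**Figure D5:**
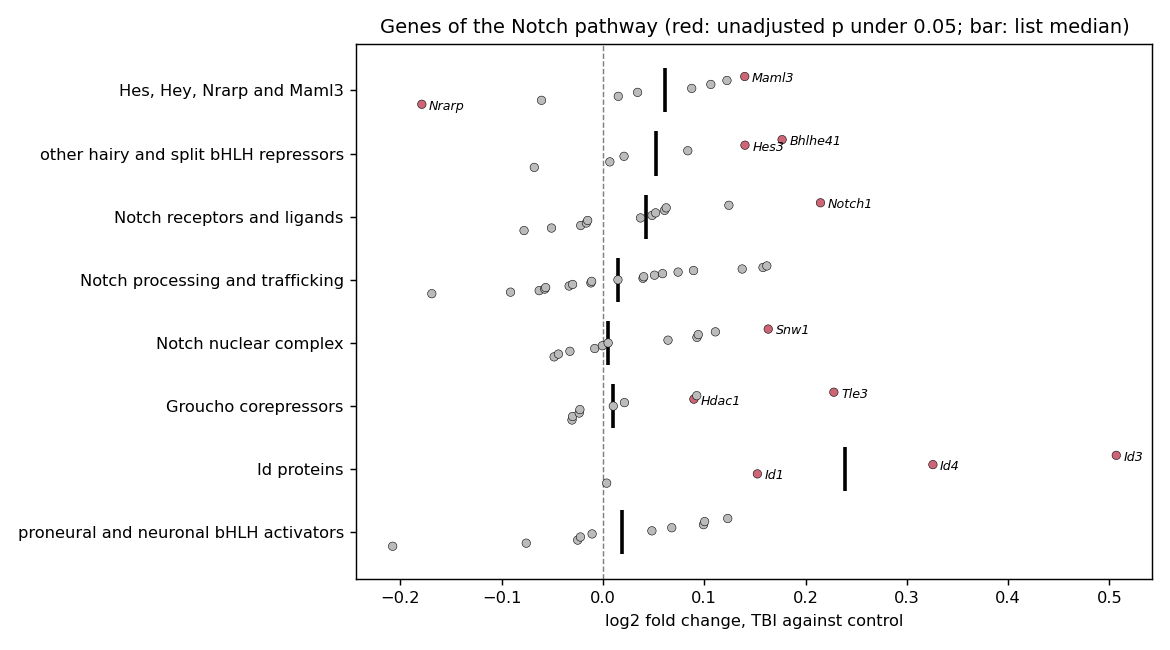
Log2 fold change, TBI against control (horizontal axis), of the 8 genes and of 71 other genes by list. The lists hold genes of the Notch pathway and, beside it, Id proteins and bHLH factors. Each point is 1 gene, red where the unadjusted p was under 0.05, and the bar is the median of the list. The 8 genes have a median of 0.061, and the Id proteins, at 0.24, have the highest median.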

How the data were processed

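Total RNA of the dentate gyrus of 6 TBI and 5 control rats was hybridized to Affymetrix Rat Gene 1.1 ST arrays. The deposited values were log2 signals of 29214 probe sets, which the authors normalized with Robust Multi-array Average in the oligo package (version 1.30.0 per the submitters' processing notes). No further scaling was applied. Probe sets were named through the platform annotation, where 18644 had 1 gene symbol, 962 several and 9608 none.

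As the study's methods describe, values below the background were raised to it, and a probe set was dropped if more than 5 arrays gave no value above it. The background was taken as 3.06, the lowest value in the study's own table of these arrays, and 487 values were raised. The remaining 17905 probe sets of 1 symbol entered lmFit and eBayes of limma 3.58.1 (R 4.3.3). Their p-values were adjusted together by Benjamini-Hochberg, and 0.05 was the threshold. The difference of each gene was also given an exact two-sided permutation test over rats. Pearson's r and Spearman's rho with Notch1 were tested with 100000 permutations, or exactly with under 10 rats and within groups (Python 3.11.15, SciPy 1.17.1), and limma was fitted with group and Notch1 as terms (17904 probe sets). Adjustment of the correlations over the 8 genes, planned at first, was dropped, and limma with Notch1 as the only term was added.

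The genes named were the 8 genes, Notch1, the 2 nearest genes of each by r, and up to 4 genes of each pathway list and 3 of each marker list with the lowest p. Also named were the astrocyte, stem and interneuron markers whose difference had the sign opposite to those that passed. The members and lists were chosen with earlier results of these data known. Promoters came from RefSeq (GRCr8). On simulated data drawn from the observed means and SDs of 17905 probe sets, limma recovered 46.3%, 83.6% and 100% of changes of 0.25, 0.5 and 1 on the log2 scale, with 13 false calls. The simulated noise was independent between probe sets, whereas 1 component held 63.9% of the variance within groups in the arrays. These shares may therefore not carry over to the arrays. The alternatives tried were other filters, scalings and tests, array weights, a block for the replicate number, the within-group component as a covariate, and leaving out rats.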

Additional observations from a re-analysis of the deposited data

Results flagged for a closer look

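In 3 of the 18 groups of values examined (8 genes and Notch1, in TBI and control rats), 1 rat lay far from the others of its group by Dixon's criterion. Chance flags about 1 in 20 such groups. Nrarp was 7.42 in control rat 1 and 7.12 to 7.18 in the other controls, and Hey1 was 7.11 in the same rat and 7.32 to 7.38 in the others. Without control rat 1 the difference of Nrarp was -0.12 in place of -0.18, and that of Hey1 was 0.055 in place of 0.11. Hes5 was 7.01 in control rat 2 and 6.90 to 6.92 in the other controls.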

How the results depend on the processing

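None of the 8 genes passed the adjusted threshold for TBI against control under the alternatives run. Of the 71 other listed genes, 0 passed in the reported comparison, 3 with array weights, 3 without control rat 2 and TBI rats 1 and 3, and 5 with the within-group component as a covariate (1 of them lower), Notch1 among them each time. These settings were added for the 71 genes after seeing the data, and 0 passed under the others and with each rat left out. The calls over all probe sets, 27 in the reported comparison, numbered 7 with median-centred arrays, 7 with a second quantile normalization, 8 with the methods' analysis of variance, 310 with array weights, 271 without control rat 2 and TBI rats 1 and 3, 946 with the within-group component as a covariate, and 5 to 34 with each rat left out in turn. Of the 27, 25 were higher in TBI, as were 5 of the 7 with median-centred arrays and 6 of the 7 after quantile normalization. With the replicate block they numbered 3, and none of the 8 genes was called, but the unadjusted p of Maml3 was above 0.05 (difference 0.12). The block also ended the call of the Notch1 slope of Nrarp (limma, adjusted p = 0.12). Deviations of same-numbered rats correlated at -0.65, -0.50, -0.41, -0.26 and 0.11, and 0 TBI rats were closest to the control of their own number. The component with 63.9% of the variance within groups weighs on these values. They therefore cannot decide whether the replicate numbers pair the rats. The Notch1 slope within groups, called for 6016 probe sets, was called for 3056 with the replicate block, 0 with the component as a covariate, and 4280 to 6290 with each rat left out.

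Signs turned for several values that no test called. The difference of Hes1 was -0.014, -0.0092, -0.0076 and -0.017 under median-centring, quantile normalization, array weights and without the 3 rats, and -0.020 to 0.055 with each rat left out. The number of genes with a Notch1 correlation past the threshold, 1 in the pooled test, was 3 with group means removed (Heyl, Nrarp and Maml3) and 1 to 2 with each rat left out. Beside the 3, the Notch1 slope within groups had an unadjusted p under 0.05 in limma for 7726 of 17904 probe sets. Correlations that turned were, with group means removed, 0.12 for Hes5, -0.16 for Hey1 and 0.69 for Nrarp, and within the TBI rats, -0.18 for Hes1, 0.55 for Hes5, -0.019 for Hey1 and 0.89 for Nrarp. Without TBI rat 4 and control rat 2, whose Notch1 was most distant from its median, they were -0.14 for Hes1, 0.24 for Hey2 and 0.018 for Nrarp, and without the 3 rats that stood apart, -0.31 for Hes1 and 0.29 for Hey2. Hes1 was at -0.078 with median-centred arrays and -0.058 after quantile normalization, which gave 0.013 for Hes5 and 0.16 for Nrarp, and Spearman's rho of Hey2 was 0.0093. With each rat left out, r was -0.21 to 0.31 for Hes1, -0.50 to 0.013 for Hes5 and -0.28 to 0.097 for Hey2. The cause was not tested. In the simulated data 46.3% of changes of 0.25 on the log2 scale were recovered, and smaller ones were not simulated. The array number limits what these values can show.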

Other observations

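Several of the deposited log2 signals were identical in different rats to every digit given, in 7 of the 8 genes. Hey2 had the value 5.61 in 4 rats (control rats 1 and 3 and TBI rats 1 and 5), which is why its group medians coincided. Hes5 had 6.91 in 3 rats (control rat 5 and TBI rats 4 and 6), and Maml3 had 6.01 in 3 rats (control rat 3 and TBI rats 1 and 5). Hes1, Hey1, Heyl and Nrarp each had 1 value shared by 2 rats, and Hes6 had none. No pair of whole arrays was identical.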
